A study of Mus musculus with 6 samples.

Results

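The nuclear genes of respiratory complexes II to V were examined in mouse hepatocytes with and without the pro-apoptotic gene Bim. Members were the protein-coding genes named Sdha to Sdhd, Cyc1, or beginning with Uqcr, Cox4, Cox5, Cox6, Cox7, Cox8 or Atp5. These were 48 of the 48353 genes in the deposited files: 4 of complex II, 9 of complex III, 18 of complex IV and 17 of complex V. A further 7 pseudogenes with such names were left out. Atp5s, which encodes coupling factor B, and Cox7a2l, which encodes a factor that joins complexes III and IV, match the name rule but are not core subunits of their enzyme.

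The mice of the knock-out group carried a loxP-flanked Bim gene (symbol Bcl2l11) and Alb-Cre, a recombinase driven by the albumin promoter and so active in hepatocytes. There were 3 such libraries and 3 wild-type libraries, all from the C57BL/6 strain, of polyadenylated RNA from hepatocytes isolated by collagenase perfusion. The labels do not say whether wild-type mice carried Alb-Cre or the loxP-flanked gene. The protocol names male mice on regular chow or on a high-fat diet begun at 8 to 10 weeks of age and kept for 14 to 20 weeks, without saying which samples had which diet. Whether the libraries came from separate animals is not stated, so each p-value reflects only how much these libraries vary, which may be technical.

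The respiratory chain sits in the inner mitochondrial membrane. Complex II (succinate dehydrogenase) passes electrons from succinate to ubiquinone, complex III (the cytochrome bc1 complex) passes them on to cytochrome c, and complex IV (cytochrome c oxidase) hands them to oxygen. Complex V, the ATP synthase, uses the proton gradient built by the chain to make ATP. Complex II is encoded wholly in the nucleus, whereas complexes III, IV and V combine nuclear subunits with a few encoded by mitochondrial DNA. Hepatocytes are rich in mitochondria and use them for ATP, urea synthesis, gluconeogenesis and fat oxidation.

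Many nuclear respiratory genes are known to be driven through promoter sites for NRF1 and for the ETS-family factor GABP, and both words were searched for in the RefSeq promoters of the members (GRCm38.p6, 250 bases before to 50 after the start, both strands). Of the 48 members, 36 matched a promoter (39 promoters). The NRF1 word (GCGCA, any base, then GCGC) stood in 10 of the 39 (25.6%), against 4.60% of all 32851 promoters and 6.38% of the 21263 promoters of protein-coding genes. The ETS word CCGGAAG stood in 12 (30.8%), against 8.86% and 11.6%. The GC box GGGCGG, a word common to many promoters, stood in 35.9% of the members' promoters, 35.7% of all and 46.2% of coding ones. A word for the factor YY1 stood in 1 (Atp5j, 2.56%), against 0.852% and 1.21%. Either the NRF1 or the ETS word was found for 18 members, and both for Atp5h, Atp5k, Cox6a1 and Sdhd. A match describes the letters only. No binding was measured.

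The stretches below hold the NRF1 or ETS word of 1 or 2 members of each complex, cut to bases before the start site and outside annotated exons, so that the letters shared across complexes can be seen. They are written 5′ to 3′ on the strand of the gene, with the word in capitals (for ETS on the opposite strand it reads CTTCCGG).
Sdha (NRF1 word, complex II, chr13:74350281-74350308, minus strand): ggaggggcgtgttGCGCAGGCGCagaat
Sdhd (ETS word, complex II, chr9:50603869-50603909, minus strand): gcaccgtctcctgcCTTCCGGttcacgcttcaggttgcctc
Uqcr11 (ETS word, complex III, chr10:80406861-80406907, minus strand): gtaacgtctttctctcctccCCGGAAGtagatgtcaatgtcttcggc
Cox6a1 (NRF1 word, complex IV, chr5:115349046-115349095, minus strand): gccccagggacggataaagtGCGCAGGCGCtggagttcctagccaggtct
Atp5h (NRF1 word, complex V, chr11:115420031-115420080, minus strand): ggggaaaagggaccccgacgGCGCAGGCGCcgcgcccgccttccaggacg
Atp5l (ETS word, complex V, chr9:44920928-44920974, minus strand): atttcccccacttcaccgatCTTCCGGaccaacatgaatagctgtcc

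The libraries held 25335211 to 31130519 estimated reads. Bcl2l11 was listed at 0 in the 3 knock-out libraries and in wild-type replicate 1, and had 680 and 478 reads in wild-type replicates 2 and 3. Its locus has several transcripts, where zeros were common (below), so these values do not settle the genotype of any library. Of the 10 hepatocyte markers, 7 were read in all 6 libraries, from 627500 to 1583544 reads for Alb down to 360 to 1116 for Cps1. Hnf4a was listed at 0 in knock-out replicate 3, Apoc3 in all libraries but wild-type replicate 2, and Tat in all 6. Of the 12 macrophage markers, the 6 read in every library had a mean log2(RPKM + 1) of 7.99 in wild-type replicate 1 and of 3.11 to 4.28 in the other 5, and the summed level of all 12 was 4208 RPKM there against 78.7 to 140.0. The mean log2(RPKM + 1) of those 7 hepatocyte markers was lowest in that same library, at 8.14 against 8.46 to 9.09. The markers did not move together. Apoa1, Fgb, Ttr and Cps1 were each lowest in that library, Alb and Serpina1c were not, and Cyp2e1 was highest there (403.2 RPKM against 161.0 to 348.7). The 5 lymphocyte markers summed to 105.7 RPKM in wild-type replicate 1 and to 0.0627 to 0.143 elsewhere. Endothelial markers summed to 31.5 RPKM in that library and were at 0 elsewhere, and all 5 stellate cell markers were listed at 0 throughout. In bulk RNA, fewer cells of a type and less RNA per cell cannot be told apart.

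Each transcript in the files carries an estimated number of reads and an RPKM value (reads scaled to transcript length and to the size of the library), and both were summed over the transcripts of a gene. RPM, used below beside RPKM, are the estimated reads of a gene scaled to the total estimated reads of its library, with no account of length. Of the 48 members, 19 were above 0 in all 6 libraries, 20 were at 0 in 1 to 5 libraries, and 9 were at 0 in all. The zeros followed the annotation of the locus. Of the 13 members at a locus with 1 annotated transcript, 10 were read in every library and 3 in none. Of the 35 at loci with 2 or more transcripts, 9 were read in every library, 20 in some and 6 in none.

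**Figure D1:**
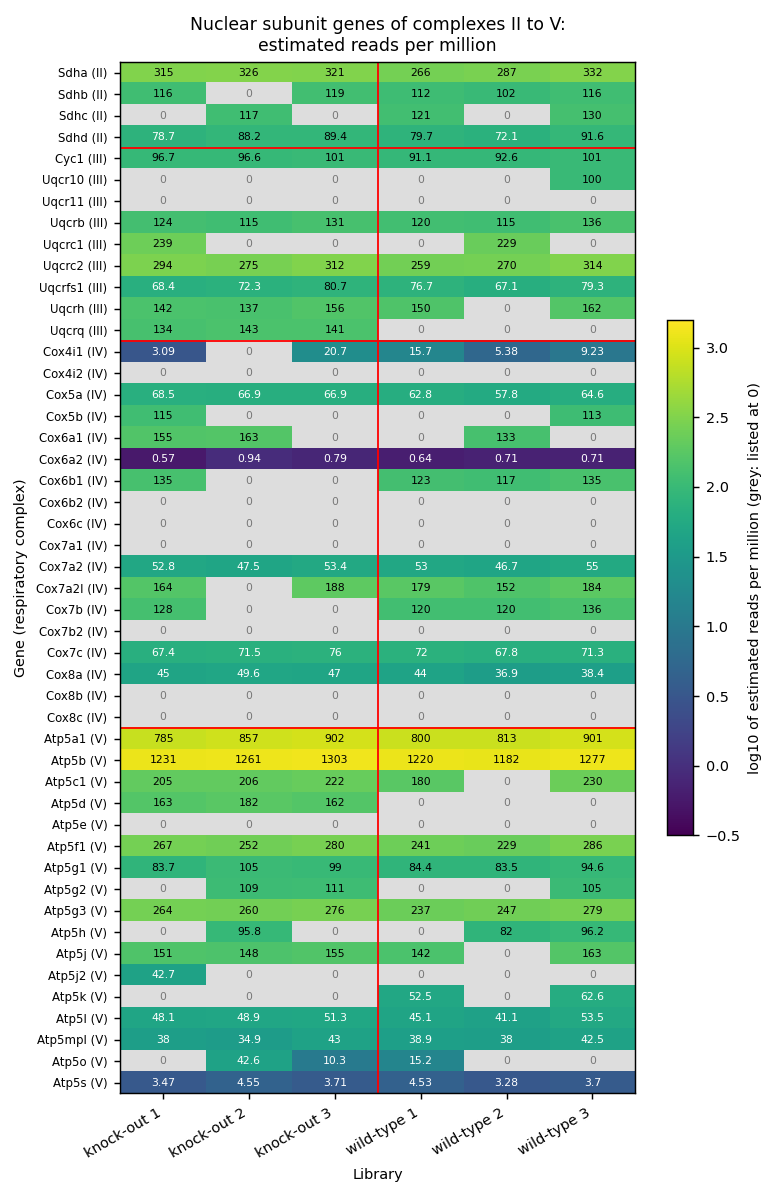
RPM of the 48 member genes (rows, grouped by complex) in the 3 knock-out and 3 wild-type libraries (columns), with a log10 colour scale and grey cells for values listed at 0. Within most rows the values above 0 lie close together, with Cox4i1 and Atp5o the widest. Zeros occur in both groups. Among genes read at least once, they fill the wild-type group for Uqcrq, Atp5d and Atp5j2, and the knock-out group for Atp5k and Uqcr10.

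Among the 29 members at such loci that were read at least once, 53 of 174 library values (30.5%) were zeros, 26 of 87 (knock-out) against 27 of 87 (wild-type). The same share was 36.0% for the 7624 protein-coding genes at loci with several transcripts and a median above 100 reads where read, and 0% for 1653 such genes at loci with 1 transcript. Where these members were above 0, their RPM differed little: for the 18 read in 2 to 5 libraries, the highest value was a median of 1.16 times the lowest, and for 16 of them it was under 1.5 times. The exceptions were Cox4i1 and Atp5o, at loci where 278 and 29 transcripts of many genes are joined, with ratios of 6.7 and 4.14. So a zero of a member at a locus with several transcripts is given below as a listed value, not as absence of the transcript.

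Complex II was represented in every library by the catalytic flavoprotein gene Sdha and the membrane anchor gene Sdhd. Sdha had 8890, 9032 and 8122 reads in knock-out replicates 1 to 3 and 7530, 8928 and 9328 in wild-type replicates 1 to 3. The groups overlapped, with the lowest value in the wild-type library that was high in macrophage markers. Its level was 151.4 ± 5.82 RPKM (knock-out) against 140.4 ± 16.4 (wild-type; SD, n = 3 each), and limma gave a difference of 0.11 (SE 0.14) on the log2(RPKM + 1) scale (adjusted p = 0.996). Without wild-type replicate 1 the difference of Sdha was 0.028. Sdhd had 2222, 2440 and 2264 reads (knock-out) against 2252, 2246 and 2578 (wild-type), again overlapping. Sdhb, the iron-sulphur subunit, had 3264, 0 and 3008 reads (knock-out) against 3152, 3162 and 3264 (wild-type). Sdhc, the other membrane anchor, had 0, 3234 and 0 reads (knock-out) against 3430, 0 and 3660 (wild-type). Apart from their zeros, both genes had nearly the same number of reads in both groups.

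In complex III the members read in every library were Cyc1 (cytochrome c1), Uqcrfs1 (the Rieske iron-sulphur protein), Uqcrc2 (a core protein) and Uqcrb (a ubiquinone-binding small subunit). Cyc1, which carries the haem that reduces cytochrome c, had 2730, 2672 and 2566 reads (knock-out) against 2574, 2882 and 2836 (wild-type). Uqcrfs1 had 1932, 2000 and 2044 reads (knock-out) against 2168, 2088 and 2230 (wild-type). Those read numbers did not overlap, but in RPM they did, at 73.8 ± 6.27 and 74.4 ± 6.43 (SD, n = 3 each). Uqcrb, the highest of these 4 in RPKM, had 3512, 3174 and 3317 reads (knock-out) against 3398, 3577 and 3829 (wild-type). It measured 315.3 ± 13.8 RPKM (knock-out) against 311.9 ± 32.4 (wild-type), and Uqcrc2 211.8 ± 7.88 and 204.5 ± 21.3 (SD, n = 3 each). Cyc1 lay at 112.5 ± 0.75 and 109.6 ± 6.41 RPKM (SD, n = 3 each). None of these differences exceeded the spread between libraries, with limma adjusted p of 0.996 to 0.998.

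Uqcrq, a small subunit of complex III near the quinone site, was one of 2 members past the limma test, out of 39 members tested, where 0.789% of all 11021 genes passed and 0.372% passed with higher values in knock-out. It had 3790, 3944 and 3566 reads with Bim deleted, and each of the 3 wild-type libraries listed it at 0. The fitted difference was 7.59 (SE 0.37, adjusted p = 0.00135), whose size depends on the pseudocount. The gene (ENSMUSG00000044894) spans positions 53427922 to 53430831 of chromosome 11 (minus strand, GRCm38), with 4 transcripts. Within knock-out its RPKM were 123.2, 182.2 and 314.6, a spread of 2.55 times at nearly constant reads. In replicate 1 all reads were assigned to a transcript of 1521 bases, whereas in replicate 3 2048 of them were assigned to one of 405 bases. The remaining small and core subunits mixed zeros and steady values. Uqcrh, the hinge protein, had 4020, 3782 and 3940 reads (knock-out) against 4238, 0 and 4570 (wild-type). Uqcrc1, the other core protein, had 6760 reads in knock-out replicate 1 and 7144 in wild-type replicate 2 and was at 0 elsewhere. Uqcr10 was read in wild-type replicate 3 alone (2816 reads), and Uqcr11 in no library.

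Atp5d, the delta subunit of the central stalk of the ATP synthase, was the other member past the test. Its reads were 4598, 5033 and 4110 in knock-out and 0 in all 3 wild-type libraries (difference 8.13, SE 0.16, limma adjusted p = 0.000148). The gene (ENSMUSG00000003072) spans positions 80138632 to 80145818 of chromosome 10 (plus strand), with 4 transcripts. Both genes reached the filter on low values through their knock-out libraries alone. Both members carry zeros in a whole group at a locus with several transcripts, as described above, and with such zeros taken as missing neither could be fitted and 0 of 25 members fitted passed (2 at an unadjusted p below 0.05, Atp5f1 and Atp5j). The count of members past the test changed with single libraries. Without knock-out replicate 1 it was 5, adding Atp5f1, Cox6b1 and Cox7b, and without wild-type replicate 2 it was 3, adding Atp5k. Over all genes 87 were called with 6 libraries and 182 to 207 with any 1 left out. With the replicate number as a block, neither Atp5d nor Uqcrq passed (adjusted p = 0.0505 and 0.0728).

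Complex IV has tissue isoforms of several subunits, and those of heart and muscle or of testis were listed at 0 or near it. Cox7b2 and Cox8c (testis) and Cox8b (heart and muscle) lie at loci with 1 transcript and had 0 reads in all 6 libraries. The lack of zeros among well-read genes at such loci cannot bear on these genes. A gene at 0 in all libraries could not enter that set. Cox6a2, the heart and muscle form, also at a locus with 1 transcript, had 16, 26 and 20 reads (knock-out) against 18, 22 and 20 (wild-type). This is 1.54 ± 0.38 and 1.39 ± 0.11 RPKM (SD, n = 3 each). Cox6a1, its liver counterpart, had 4374, 4498 and 0 reads (knock-out) against 0, 4152 and 0 (wild-type), so that where it was read it lay at 332.0 to 397.5 RPKM. Cox7a2, the liver form of subunit 7a, had 1490, 1314 and 1352 reads (knock-out) against 1498, 1454 and 1548 (wild-type). Cox7a1, the muscle form, was listed at 0 in all libraries, at a locus with 2 transcripts. Cox4i2 (lung form) and Cox6b2 (testis form), both at loci with several transcripts, were also listed at 0 throughout. So were Cox6c and Atp5e, at such loci but outside these isoform sets. Zeros at loci with several transcripts therefore do not show an isoform pattern.

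Cox8a, the ubiquitous form of subunit 8, was the 1 member whose groups did not overlap both in RPKM and in RPM. It had 1272, 1372 and 1192 reads (knock-out) against 1242, 1148 and 1080 (wild-type), which overlap as raw reads. Scaled to length and library it measured 115.4, 127.0 and 113.6 RPKM (knock-out) against 108.8, 96.2 and 96.5 (wild-type), so every knock-out library lay above every wild-type library. The difference was 0.24 (SE 0.12, 95% interval -0.07 to 0.54) with a limma adjusted p of 0.996. Among the 5538 genes read in every library, 5.94% had groups that did not overlap in RPKM, and 3.77% of 5512 did in RPM. Cox5a, which lies on the matrix side of the enzyme, did not overlap in RPM (68.5, 66.9 and 66.9 against 62.8, 57.8 and 64.6) but did in RPKM, at 133.8 ± 5.64 and 123.4 ± 4.55 (SD, n = 3 each). The overlap in RPKM was of knock-out replicate 3 (127.6) with wild-type replicate 3 (128.2). RPKM and RPM of Cox5a, which has 1 transcript, differ only by a fixed length and by the library total used. Members thus gave 1 of 19 on the first scale and 2 of 18 on the second. Cox8a (ENSMUSG00000035885, chromosome 19 from 7215158 to 7217616, minus strand) has 1 transcript, so its RPKM does not depend on how reads were divided. Without wild-type replicate 1, which was high in macrophage markers, its difference was 0.30 in RPKM and 0.32 in RPM, again with limma adjusted p above 0.99. In that RPM fit of genes read in every library, Cox8a was the 1 member of 18 with a limma unadjusted p below 0.05. Over all genes 80 of 5512 had one. In RPKM 0 members had one. With any 1 library left out, over both scales, its difference was 0.19 to 0.32.

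Several other members of complex IV were read in part of the libraries. Cox6b1, which faces the intermembrane space, had 3802, 0 and 0 reads (knock-out) against 3478, 3632 and 3800 (wild-type), and Cox7b 3618, 0 and 0 against 3400, 3750 and 3838. Both genes were thus as high in knock-out replicate 1 as in the wild-type libraries, and neither passed with all 6 libraries. Cox5b had 3238 reads in knock-out replicate 1 and 3184 in wild-type replicate 3 and was listed at 0 in the other 4. Cox7a2l had 4637, 0 and 4774 reads (knock-out) against 5064, 4732 and 5174 (wild-type). Cox4i1, the main form of subunit 4, was given 87, 0 and 525 reads (knock-out) against 444, 168 and 260 (wild-type). It belongs to the locus of 278 transcripts, so its level is uncertain. Cox6c, a further subunit, was listed at 0 in all 6 libraries.

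The catalytic subunit genes of the ATP synthase were the most strongly read members. Atp5b, the beta subunit that holds the catalytic sites, had 34772, 34880 and 33008 reads (knock-out) against 34464, 36810 and 35912 (wild-type). Its level was 935.9 ± 51.6 RPKM (knock-out) against 920.0 ± 58.7 (wild-type; SD, n = 3 each), a difference of 0.03 (SE 0.13, 95% interval -0.3 to 0.35, limma adjusted p = 0.996). Atp5a1, the alpha subunit, had 22166, 23700 and 22848 reads (knock-out) against 22608, 25318 and 25336 (wild-type). In RPM the 2 genes took 1182 to 1303 and 785 to 902 in the 6 libraries. Atp5c1, the gamma subunit of the central stalk, had 5797, 5693 and 5632 reads (knock-out) against 5077, 0 and 6484 (wild-type). Atp5e, the epsilon subunit, was listed at 0 throughout.

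Atp5g1, Atp5g2 and Atp5g3 encode the same mature c subunit of the membrane rotor with different import sequences. Atp5g3 was the highest by reads, at 7454, 7188 and 7004 (knock-out) against 6692, 7702 and 7846 (wild-type). Atp5g1 had 2364, 2909 and 2509 against 2384, 2599 and 2660. Atp5g2 had 0, 3028 and 2823 reads (knock-out) against 0, 0 and 2946 (wild-type). Where all 3 were read, Atp5g1 and Atp5g2 were thus close to each other in reads. Among peripheral stalk genes, Atp5j had 4265, 4094 and 3924 reads (knock-out) against 4013, 0 and 4591 (wild-type). Atp5h had 0, 2651 and 0 reads (knock-out) against 0, 2554 and 2707 (wild-type), and Atp5o, in the locus of 29 transcripts, had 0, 1180 and 261 against 430, 0 and 0. In the membrane part, Atp5k was read in wild-type replicates 1 and 3 (1484 and 1762 reads) and Atp5j2 in knock-out replicate 1 alone (1206 reads). Atp5l and Atp5mpl, small membrane subunits at loci with 1 transcript, had 1274 to 1504 and 966 to 1196 reads in the 6 libraries, with overlapping groups. Atp5s stood far lower, at 94 to 128 reads.

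RPKM of several members moved with the transcript to which reads were assigned, while reads of the gene stayed level. Atp5f1, subunit b of the peripheral stalk, had 7550, 6974 and 7102 reads (knock-out) against 6801, 7125 and 8034 (wild-type). All of these went to a transcript of 1604 bases (ENSMUST00000118209) in knock-out replicate 1 and in wild-type, and to one of 456 bases (ENSMUST00000199311) in knock-out replicates 2 and 3. The RPKM were accordingly 232.6, 771.8 and 809.3 (knock-out) against 202.4, 202.8 and 243.9 (wild-type). In the fit of genes read in every library, Atp5f1 was the 1 member of 19 with a limma unadjusted p below 0.05 (difference 1.28, SE 0.50). Of all such genes 2.35% had one. Its limma adjusted p there was 0.996. In the fit of all tested genes its SE was 0.54, with a limma unadjusted p of 0.063 and an adjusted p of 0.941. In RPM its difference was 0.09 (SE 0.12, adjusted p = 0.999), with values of 266.6 ± 14.1 and 251.7 ± 29.9 (SD, n = 3 each). The gene spans positions 105942698 to 105960099 of chromosome 3 (minus strand), with 6 transcripts.

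Atp5g1 showed the widest range. It measured 25.1, 31.5 and 28.0 RPKM (knock-out) against 24.4, 25.5 and 210.7 (wild-type). In wild-type replicate 3, 2567 reads were assigned to a transcript of 596 bases, whereas all reads of the other 5 libraries went to one of 4660 bases. The highest value was 8.63 times the lowest in RPKM and 1.26 times in RPM. Atp5a1 reached 1394 RPKM in wild-type replicate 1, where its 22608 reads fell on a transcript of 774 bases, and 420.0 to 839.2 in the other 5 libraries. Cox7c, a small subunit and the highest in RPKM of the complex IV members read in every library, had 1903, 1978 and 1925 reads (knock-out) against 2035, 2111 and 2007 (wild-type). Its RPKM were 223.8, 316.9 and 317.5 (knock-out) against 308.3, 136.0 and 310.3 (wild-type), lowest where the reads went to a transcript of 709 bases. Of the 9 members at loci with several transcripts that were read in every library, 6 changed their leading transcript between libraries. The ratio of highest to lowest value was over 1.5 for 4 of the 9 in RPKM and for 0 of the 9 in RPM.

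**Figure D2:**
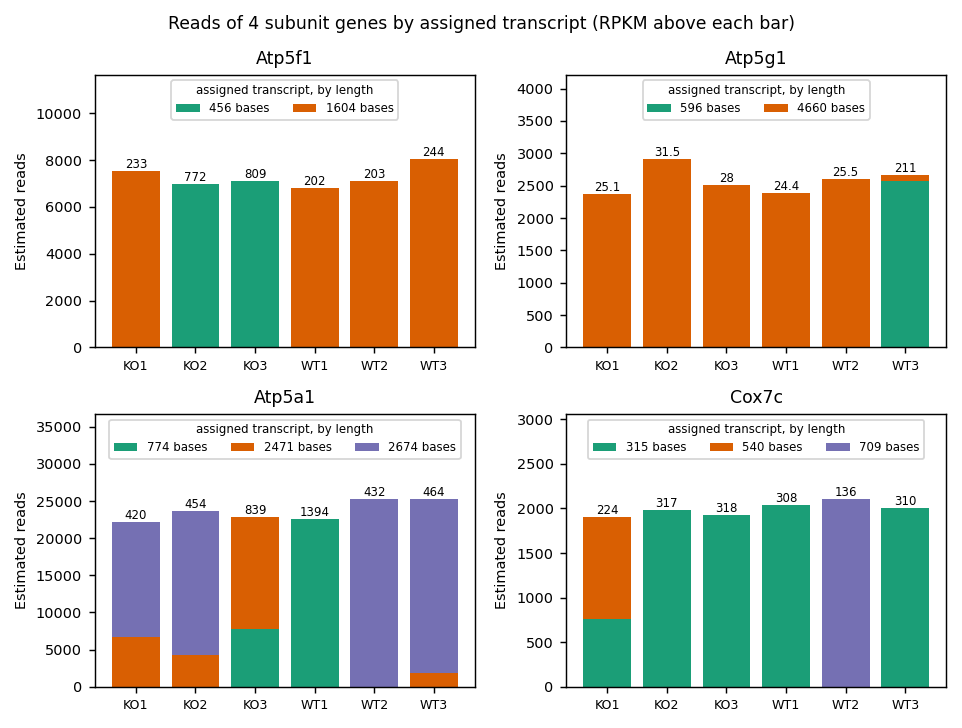
Estimated reads (vertical axis) of Atp5f1, Atp5g1, Atp5a1 and Cox7c in each library (KO, Bim knock-out; WT, wild-type; replicate number), split by the transcript to which they were assigned and coloured by its length, with the RPKM of the gene above each bar. Bars of a gene are of similar height, while RPKM are highest where a short transcript took the reads, as in wild-type replicate 3 for Atp5g1 (210.7).

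In RPM, where the reads of a gene are summed whichever transcript they were assigned to, most members read in every library varied little. The library total that RPM divide by is itself a sum of estimated reads, to which genes listed at 0 add nothing. The SD of log2 RPM over the 6 libraries had a median of 0.113 for the 19 members and of 0.206 for the 5538 genes read in every library and tested. These sets were not matched for read depth, so the medians do not set the members apart from other well-read genes. The least-read members, Cox6a2 and Atp5s, had the widest SD, at 0.252 and 0.198. Knock-out minus wild-type ranged from -0.04 (Atp5mpl) to 0.25 (Cox8a) over the 18 members tested in RPM, with a median of 0.06 against 0.01 for all 5512 genes. Of the 18, 14 were positive (77.8%), as were 53.5% of all genes. All 18 intervals (95%) lay within 1 log2 unit, the widest bounds being -0.35 and 0.53, and 87.4% of all genes had such an interval. Limma called 0 members and 0 genes (0%), with 0 members and 67 genes (1.22%) at an unadjusted p below 0.05.

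In RPKM the 19 differences ranged from -0.85 (Atp5g1) to 1.28 (Atp5f1), with a median of 0.04 against 0.0013 for all 5538 genes. There 14 of 19 were positive, against 50.2% of all genes, and 15 intervals lay within 1 log2 unit. Again limma called 0 members and 0 genes (0%), and 130 genes had an unadjusted p below 0.05. Without wild-type replicate 1 the difference moved from -0.27 to 0.28 for Atp5a1, from -0.85 to -1.36 for Atp5g1 and from 0.26 to 0.46 for Cox7c. The count of positive members depended on single libraries: it was 10 of 19 without wild-type replicate 1 and also 10 without wild-type replicate 2, 16 without wild-type replicate 3, and 12 with voom. On RPM the counts without those 3 libraries were 15, 10 and 18 of 18.

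**Figure D3:**
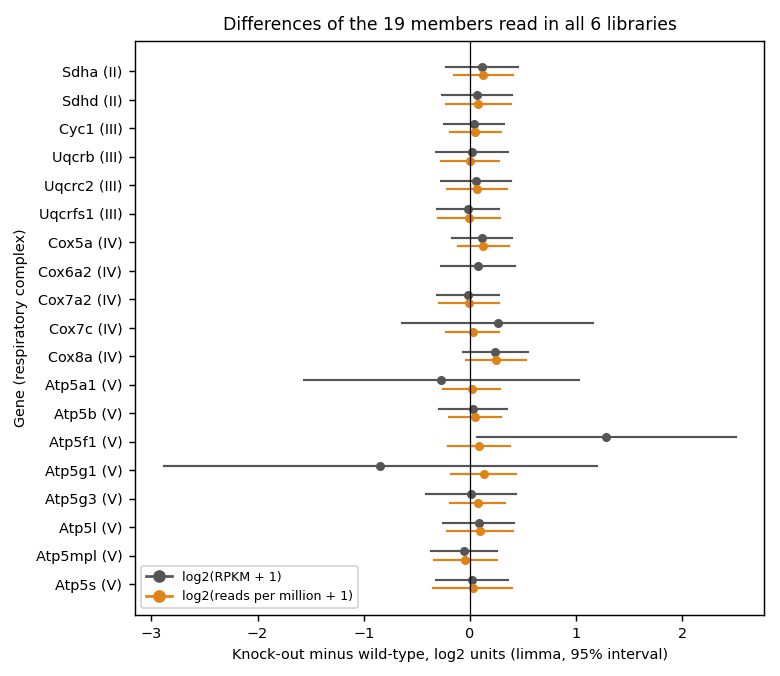
Knock-out minus wild-type (horizontal axis, log2 units) for the 19 members read in all 6 libraries, as points with 95% limma intervals, in RPKM (grey) and in RPM (orange; Cox6a2 was below the filter there). The intervals in RPKM are wide for Cox7c, Atp5a1, Atp5f1 and Atp5g1 and narrower in RPM, where all include 0.

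The RPM of the members also shifted together from library to library. Of the 19, 18 were above their own 6-library mean of log2 RPM in knock-out replicate 3 and 16 in wild-type replicate 3. In wild-type replicate 2, 0 were. Over all genes read in every library the shares above the mean in those libraries were 81.1%, 68.8% and 22.0%. Most genes thus moved the same way there. The total of reads by which RPM are scaled was lowest in knock-out replicate 3 (25335211) and highest in wild-type replicate 2 (31130519). For members at loci with 1 transcript, RPKM and RPM differ only by a fixed length and by the library total used. Sdhd, 1 of these, had 89.4 (knock-out replicate 3) and 72.1 (wild-type replicate 2) in RPM, and 91.4 and 79.7 in RPKM. How much this scaling adds to the shift over all members was not tested. In wild-type replicate 1, high in macrophage markers, 5 of the 19 members were above their mean against 60.5% of all genes, with a median deviation of -0.06 and 0.07 log2 units. The part of those cells in the difference was not tested.

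The 4 complexes were compared by the summed RPM of their members read in every library. Complex II (2 genes) took 393.4, 414.7 and 409.9 (knock-out) against 346.2, 358.9 and 423.2 (wild-type). Complex III (4 genes) took 588.9 ± 33.4 (knock-out) against 573.9 ± 48.5 (wild-type), complex IV (5 genes) 238.2 ± 5.17 and 224.1 ± 12.4, and complex V (8 genes) 2834 ± 119 and 2748 ± 164 (SD, n = 3 each). Complex IV was the 1 complex whose groups did not overlap in RPM, with 234.2, 236.4 and 244.0 against 232.5, 209.9 and 230.0, whereas in RPKM they overlapped (633.0 ± 49.6 and 571.1 ± 112.8, SD, n = 3 each). This sum largely restates Cox8a and Cox5a, described above, with mean RPM of 47.2 against 39.7 and 67.4 against 61.7. Cox7a2 (51.2 and 51.6) and Cox7c (71.6 and 70.4) hardly differed. The sums were not tested. The ratios of knock-out to wild-type were 1.08, 1.03, 1.06 and 1.03 for complexes II to V. Without wild-type replicate 1 the log2 ratios in RPKM were 0.03, -0.03, 0.23 and 0.19 for complexes II to V, against 0.09, 0.03, 0.15 and 0.08 with it.

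In RPM the balance between complexes differed little between libraries. Complex II took 9.99% ± 0.30 of the summed reads (knock-out) against 9.57% ± 0.46 (wild-type), complex III 14.5% ± 0.54 and 14.6% ± 0.27, complex IV 5.86% ± 0.10 and 5.72% ± 0.35, and complex V 69.7% ± 0.42 and 70.1% ± 0.43 (SD, n = 3 each). In RPKM the shares varied more, from 4.50 to 6.11% (II), 14.10 to 18.95% (III), 12.2 to 14.9% (IV) and 60.8 to 67.6% (V) over the 6 libraries. These shares depend on how many genes of a complex were read and on their lengths, so they compare libraries and not the amounts of the complexes. They also rest on a few strongly read genes. In knock-out, Atp5b and Atp5a1 had mean RPM of 1265 and 848 within the 2834 of complex V. Sdha had 320.6 within the 406.0 of complex II.

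Levels per length can be ordered for the 10 members read at loci with 1 transcript. From the top, over 6 libraries, they were Atp5mpl (147.6 ± 9.13 RPKM), Atp5l (128.9 ± 10.6), Cox5a (128.6 ± 7.32), Cyc1 (111.1 ± 4.39), Cox8a (109.6 ± 11.9), Cox7a2 (93.6 ± 4.93), Sdhd (88.9 ± 7.12) and Uqcrfs1 (74.6 ± 4.03) (SD, n = 6 each). Subunits of all 4 complexes thus lay between 74.6 and 147.6 RPKM. The ranges of Cox5a and Cyc1 did not overlap, nor did those of Sdhd and Uqcrfs1, whereas all other neighbours among these 8 overlapped. Far below stood Atp5s (3.58 ± 0.49 RPKM) and Cox6a2 (1.47 ± 0.27; SD, n = 6 each).

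**Figure D4:**
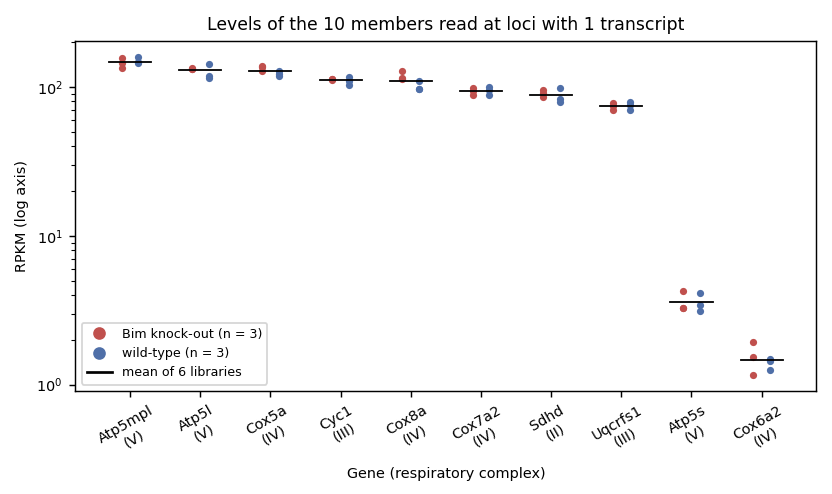
RPKM (log axis) of the 10 members at loci with 1 transcript that were read in all 6 libraries, 1 point per library in red for knock-out and blue for wild-type, with the mean of 6 as a line. Atp5s and Cox6a2 lie at 3.58 and 1.47 RPKM on average, and the remaining genes, from all 4 complexes, between 74.6 and 147.6.

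Other genes of the same machinery did not pass the limma test. Of the assembly factors, 3 of 4 for complex II, 4 of 6 for complex III, 17 of 21 for complex IV and 4 of 6 for complex V were tested, and 0 passed in either direction, where 0.789% of all genes did. The same held for 14 of 16 electron carrier and coenzyme Q genes and for 9 of 12 regulators of mitochondrial gene expression. The complex V list of assembly factors also held Usmg5, a subunit of the enzyme, and Atpif1, its inhibitor. Usmg5 was the 1 gene of that list read in every library, so that list had no assembly factor in the next fit. In the fit of genes read in every library, 0 genes of these lists had an unadjusted p below 0.05, against 2.35% of all genes. With lists this short, counts of 0 do not set them apart from other genes. The 6 mitochondrially encoded subunits of complexes III to V were read in every library. Of these, 5 had a positive difference (median 0.15 on the log2 scale), as did 50.2% of all genes, and 0 passed. Their summed level was 36933, 41270 and 38259 RPKM (knock-out) against 35801, 34787 and 36889 (wild-type), with 36933 the lowest knock-out and 36889 the highest wild-type value. In RPM the groups overlapped, at 27164, 30368 and 30269 (knock-out) against 27139, 26714 and 27976 (wild-type).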

How the data were processed

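Polyadenylated RNA of hepatocytes from 3 Bim knock-out and 3 wild-type samples was sequenced as single-end libraries, per the labels. TopHat2 (version 2) and the GRCm38 build are named by the submitters, per the submitters' processing notes. Which program divided the reads among transcripts, and whether strand was used, are both not given in the sources used here, so a gene and an overlapping neighbour may share reads. The deposited files list an estimated read count, a length and an RPKM value, other attributes aside, for each of 118492 transcripts. RPKM of the authors are reads scaled to transcript length and library size.

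Reads and RPKM were summed per gene. Symbols came from a table of gene identifiers (47993 of 48353 matched) and gene types from GENCODE M21. Tests covered genes whose mean reached 1 RPKM, and were run on log2(RPKM + 1) with limma 3.58.1 in R 4.3.3 (trend, two-sided), knock-out minus wild-type, with Benjamini-Hochberg adjustment over all genes tested and a threshold of 0.05. For low genes the pseudocount shrinks a difference. The test was repeated for genes above 0 in all 6 libraries, and with RPM in place of RPKM. SE, intervals and adjusted p of members read in every library are from that repeat, unless the fit of all tested genes is named. The limma fit was tried on simulated data, made only for genes read in every library and with a common spread. Those data held no whole-group zeros, so they do not bear on calls that rest on such zeros, as for Uqcrq and Atp5d. A count test was not used, since the reads are estimates. Values with n = 3 are mean and SD.

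The members, lists and alternatives were chosen with earlier results of these data known. All members may be named. Full values are given for members past a test, with groups that do not overlap or at an unadjusted p below 0.05, for the highest of each complex, and for isoform sets. Values of further members are given so that every member is accounted for. Alternatives were the pseudocount, filter, scaling, RPM, voom (on reads divided by 2), zeros as missing, replicate block, threshold and left-out libraries. Leaving out libraries in RPM was added after the data were seen. Python 3.11.15, pandas 2.3.3 and matplotlib 3.10.9 made tables and figures.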

Additional observations from a re-analysis of the deposited data

How the results depend on the processing

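The count of members past the limma test was 2 with another pseudocount, filter, scaling, threshold, RPM or voom. It was 0 with zeros at loci with several transcripts taken as missing, where no gene passed (0 against 87), and 0 with the replicate block, where again no gene passed (0). Under the block, Atp5d and Uqcrq differed by 8.13 and 7.59. Numbers shared by the groups are not stated to mark a common animal or day, and deviations of same-numbered libraries correlated at -0.16, -0.05 and -0.01 over genes read in every library. No library correlated best with that of its own number. With 1 library left out, on either scale, 2 to 5 members and 182 to 236 genes passed. In the separate fit of genes read in every library, 0 members passed in any setting, and of genes 0 to 1 with 1 library left out. Atp5f1, read in every library, passed in the fit of all genes without knock-out replicate 1. Log2 ratios of complex sums moved by less than 1 SD in all settings. Without 1 library they ranged from 0.03 to 0.18 (II), -0.03 to 0.1 (III), -0.01 to 0.23 (IV) and -0.03 to 0.19 (V).

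Differences that were not called changed sign in some settings. In RPM Uqcrb was -0.0033, Atp5a1 0.016 and Atp5g1 0.13. With voom Uqcrb was -0.040, Cox7c -0.014, Atp5g1 0.092 and Atp5s -0.0027. With 1 library left out, over both scales, these differences crossed 0: Atp5a1 -0.58 to 0.28, Atp5b -0.024 to 0.075, Atp5g1 -1.36 to 0.22, Atp5g3 -0.10 to 0.16, Atp5mpl -0.12 to 0.024, Atp5s -0.085 to 0.13, Cox6a2 -0.031 to 0.19, Cox7a2 -0.077 to 0.043, Cox7c -0.13 to 0.46, Cyc1 -0.0048 to 0.095, Sdhd -0.0031 to 0.17, Uqcrb -0.055 to 0.10, Uqcrc2 -0.018 to 0.15 and Uqcrfs1 -0.082 to 0.042.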
